A study of Homo sapiens with 6 samples.

Results

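The deposited count table of 23384 rows holds 563 rows typed as small RNA genes, taken by the table's own type column as miRNA (125 rows), snoRNA (68), snRNA (130), scaRNA (1) or misc_RNA (239). Counts came from 6 RNA-seq libraries of CAL27, a long-established line of oral squamous carcinoma cells of human origin. Of these, 3 control libraries came from cells transfected with the vector (genotype WT) and 3 from cells transfected with a plasmid for TNFAIP2 overexpression, called TNFAIP2-labelled below. TNFAIP2 is named for its induction by the cytokine TNF. Both groups share the line and the culture medium, and the labels give no time after transfection. No label says that replicates are separate cultures. P-values therefore reflect only how far these libraries spread, and that spread may be technical. Detection limits given below cover counting error only.

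Small RNA genes encode short, mostly noncoding transcripts. A miRNA is cut from a hairpin by DROSHA and DICER1 and guides an Argonaute protein to messenger RNAs through its seed. snoRNAs guide chemical modification of ribosomal RNA, and many are released from introns of a host gene. snRNAs such as U1, U2, U4 and U6 form the spliceosome, and scaRNAs guide the modification of snRNAs in Cajal bodies. The misc_RNA type covers Y RNAs, 7SL (the RNA of the signal recognition particle), 7SK and conserved pieces of longer noncoding RNAs. Many U6, Y RNA and 7SL entries are near-identical copies of one another, so counts on a single copy are uncertain. The labels name an mRNA library kit, and mature small RNAs mostly lack the poly(A) tail by which such kits usually take up transcripts.

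The mature sequences below are those of the 9 miRNA features with the most counts among those with an entry by symbol in RefSeq (GRCh38.p14). They are shown because the rows of these features lie opposite exons of other genes, and capitals mark the seed, bases 2 to 8. Of 125 miRNA features, 118 had such an entry, with 158 mature sequences and 149 different seeds.
hsa-miR-1282: uCGUUUGCcuuuuucugcuu
hsa-miR-3661: uGACCUGGgacucggacagcug
hsa-miR-762: gGGGCUGGggccggggccgagc
hsa-miR-4492: gGGGCUGGgcgcgcgcc
hsa-miR-6126: gUGAAGGCccggcggaga
hsa-miR-4253: aGGGCAUGuccagggggu
hsa-miR-3918: aCAGGGCCgcagauggagacu
hsa-miR-4271: gGGGGAAGaaaaggugggg
hsa-miR-1279: uCAUAUUGcuucuuucu
miR-762 and miR-4492 share the seed GGGCUGG, and the other sequences shown each had a seed of their own among those shown. Over all the matched features, 8 seeds were shared by more than 1 feature. These sequences identify the genes, and no read was examined for them.

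Counts on the small RNA features were concentrated on a few rows. The 563 features held 393348 counts over the 6 libraries, of which miRNA features held 385009 (97.9%), misc_RNA features 4724, snRNA features 3196, snoRNA features 417 and the scaRNA feature 2. MIR6723 alone held 80.1% of these counts, and the 10 highest features held 98.2%. The median feature had 4 counts over all 6 libraries, 363 features (64.5%) had 1 to 5 counts, and 60 had at least 30. The number of features with a count in one library ran from 208 to 252. With 3 counts taken as the detection limit, a library could show a feature down to between 0.784 and 1.08 CPM (counts scaled to library size, with TMM factors).

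Small RNA features took a similar share of each library. They held 1.79%, 2.2% and 1.94% of all counts in control replicates 1 to 3, and 1.83%, 2.05% and 1.78% in the TNFAIP2-labelled replicates 1 to 3. The means were 1.98% ± 0.206 in controls and 1.89% ± 0.140 in TNFAIP2-labelled libraries (SD, n = 3), and the groups overlapped. Without MIR6723 the shares were 0.370%, 0.432% and 0.377% in controls and 0.352%, 0.414% and 0.363% in TNFAIP2-labelled libraries, and the groups again overlapped.

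Libraries held between 3092261 and 3527161 counts, and protein-coding rows held between 50.2% and 57.6% of them. TNFAIP2 had 194, 112 and 162 counts in controls and 194, 152 and 142 in TNFAIP2-labelled libraries, so its own row was not higher in the libraries labelled for it (log2 fold change -0.21, SE 0.28, adjusted p in edgeR = 0.881). Every direction given below is therefore that of the libraries labelled overexpression. The strand setting of the counting is not given, and whether the TNFAIP2 row counts that gene's own transcript was not tested. The same applies to the other gene rows below. All 12 squamous epithelial markers examined were listed, with sums of 2730 to 4485 counts in controls and 3816 to 5191 in TNFAIP2-labelled libraries, and KRT5 was the highest. Fibroblast markers summed to 3 to 11 and 6 to 21 counts (3 of 6 listed), leukocyte markers to 12 to 21 and 13 to 18 (4 of 5 listed), and endothelial markers to 15 to 32 and 18 to 41 (1 of 4 listed). Of 3 melanocyte markers 2 were listed, with sums of 529 to 643 and 499 to 594, and PMEL, whose row spans CDK2 on the other strand, was the highest. In bulk RNA, fewer cells of a type and less RNA per cell cannot be told apart.

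The features were then placed against the genes around them. Of 563 features, 384 lay wholly within a protein-coding row of the table: 277 only on its opposite strand, 93 only on its own strand and 14 within rows of both strands, while 179 lay in none. The 277 opposite-strand features held 43404 counts and the 93 same-strand features 31001, of which MIR4461, described below, held 30420. The 179 features outside such rows held 318830 counts, of which MIR6723 held 315041.

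By the exons of GENCODE 29 (GRCh38), which gave all 563 features the same coordinates as the table, counts lay mostly opposite exons of other genes. A feature was placed on an exon when at least 50% of its bases overlapped one. Where several positions applied, the order was opposite exon, same-strand exon, opposite intron, same-strand intron. MIR4461, in a same-strand intron of PCBD2, is therefore among those opposite an exon. There were 43 features opposite a protein-coding exon, with 40031 counts and a median of 43. Another 55 lay opposite an exon of a noncoding gene or pseudogene, with 348610 counts and a median of 8. Opposite an intron lay 243 features, with 3287 counts and a median of 3. Introns of their own strand held 84 features with 381 counts and a median of 2. Another 134 features, elsewhere and not wholly within a protein-coding gene of GENCODE 29, had 993 counts and a median of 3. The table's rows can differ from GENCODE 29: ENSG00000207383, among the 134, lies within the row of POLR1B on the opposite strand. The other 4 lay on an exon of their own strand, 3 of a protein-coding gene (6 counts) and 1, RN7SL1, of another gene (40 counts). Together the 98 features opposite an exon held 98.8% of the small RNA counts, and 94.0% of those left without MIR6723. Of the 20 features with the most counts, 19 lay opposite an exon, and the other was RNU4-5P. The strand setting used for counting is not given in the sources used here, and which strand's RNA gave the counts was not tested.

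**Figure D1:**
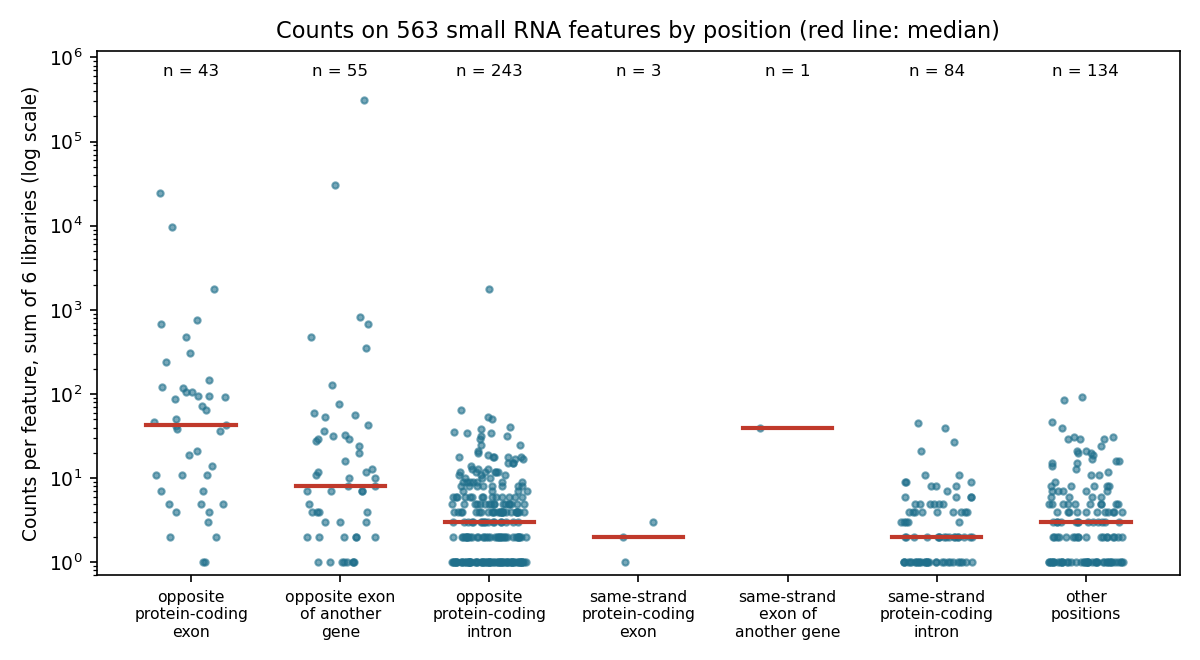
Counts per small RNA feature summed over the 6 libraries (vertical log axis) by position against GENCODE 29 exons, with 1 point per feature and a red line at the median. The median is 43 counts for the 43 features opposite a protein-coding exon, 3 for the 243 opposite an intron and 2 for the 84 in an intron of their own strand.

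The same pattern held for which annotated features reached the table at all. Of 6983 small RNA genes in GENCODE 29, 563 (8.06%) had a count and 60 (0.859%) had at least 30. Opposite a protein-coding exon, 43 of 74 (58.1%) had a count and 25 (33.8%) had at least 30. Opposite an exon of another kind of gene, 55 of 138 (39.9%) had a count, and opposite an intron 243 of 1138 (21.4%). In an intron of their own strand, 84 of 2019 (4.16%) had a count, and 2 had at least 30. On an exon of their own strand, 3 of 348 (0.862%) within protein-coding genes and 1 of 264 (0.379%) within others had a count. How the counting treated reads that overlap exons of more than 1 gene was not examined. That rule can lower the shares on exons of the same strand, so these cannot be read as levels of RNA. These shares are a description of the table, since the features share the 6 libraries.

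**Figure D2:**
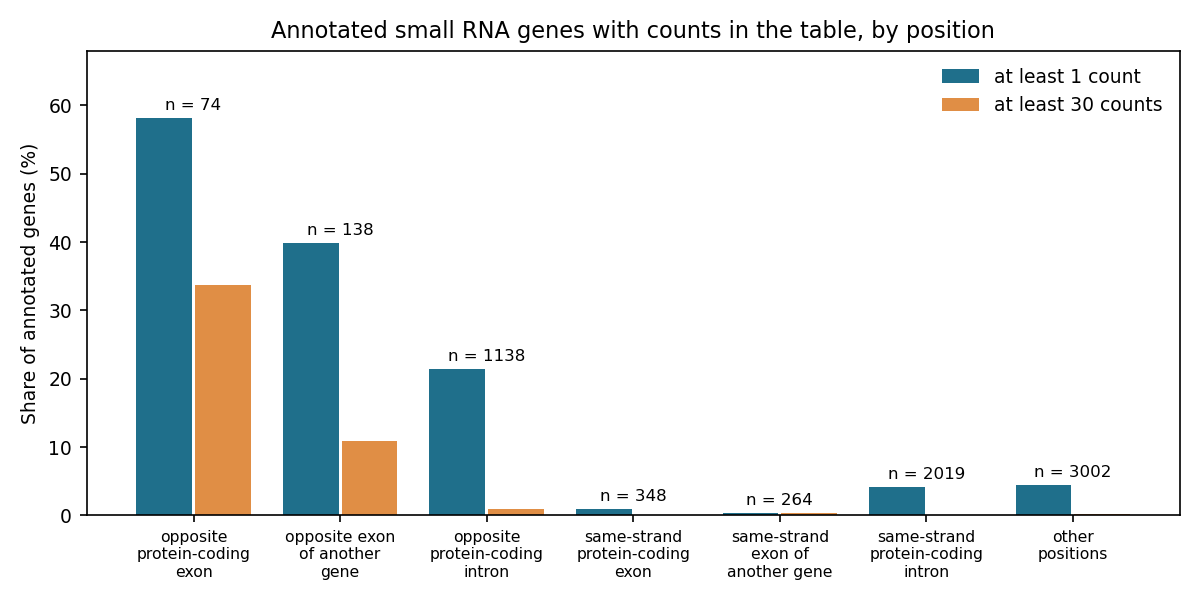
Share of the small RNA genes annotated in GENCODE 29 (percent, vertical axis, from 0) with at least 1 count (blue) or at least 30 counts (orange) over the 6 libraries, by position, with the number annotated above each pair of bars. The share with a count is 58.1% opposite protein-coding exons and 4.16% in introns of the same strand.

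MIR6723 (ENSG00000278791, chromosome 1, 632325 to 632413, minus strand) had more counts than any other small RNA feature. Control replicates 1 to 3 held 43948, 62349 and 50809 of its counts, and TNFAIP2-labelled replicates 1 to 3 held 51805, 56262 and 49868. By count, control replicate 2 was the highest library and control replicate 1 the lowest, so the groups overlapped. Its level was 16994 ± 2740 CPM in controls and 14402 ± 1729 CPM in TNFAIP2-labelled libraries (SD, n = 3), for a log2 fold change of -0.24 (with SE 0.18 and adjusted p in edgeR = 0.831). Without control replicate 2 it was -0.07. The feature lies opposite MTCO1P12 (ENSG00000237973, chromosome 1, 631074 to 632616, plus strand), an unprocessed pseudogene that copies the mitochondrial gene for a subunit of cytochrome c oxidase. The hairpin, reversed and complemented, matched the mitochondrial transcript MT-CO1 at 88 of 89 bases (98.9%), against 44.9% for its best placement in the same direction. The table has 0 rows of the mitochondrial chromosome, and which copy the counts came from was not tested.

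MTCO1P12 itself had far fewer counts on its own row than MIR6723 had opposite it. The pseudogene had 1867, 3377 and 6557 counts in controls and 7933, 4304 and 5327 in TNFAIP2-labelled libraries. Its count divided by that of MIR6723 was 0.0425, 0.0542 and 0.129 in controls and 0.153, 0.0765 and 0.107 in TNFAIP2-labelled libraries, and these ratios overlapped between groups. Per base, MIR6723 had 186 times the counts of MTCO1P12.

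MIR4461 (ENSG00000263963, chromosome 5, 134928039 to 134928112, plus strand) was the second feature of this kind. It had 4360, 6145 and 5021 counts in controls and 4473, 6082 and 4339 in TNFAIP2-labelled libraries, and replicate 2 was the highest library of both groups. The levels were 1680 ± 267 and 1365 ± 352 CPM (SD, n = 3), for a log2 fold change of -0.30 (with SE 0.20 and adjusted p in edgeR = 0.830). It was -0.14 without control replicate 2 and -0.50 without TNFAIP2-labelled replicate 2. The feature lies in an intron of PCBD2 on that gene's own strand, and PCBD2, a partner protein of a liver transcription factor, had 53 counts over all libraries. Opposite it lies MTND4LP30 (ENSG00000198868, chromosome 5, 134928030 to 134928326, minus strand), a processed pseudogene of a mitochondrial complex I subunit. The hairpin, reversed and complemented, matched MT-ND4L at 70 of 74 bases (94.6%). MTND4LP30's count over that of MIR4461 was 0.0578, 0.0646 and 0.0675 in controls and 0.0894, 0.0809 and 0.0973 in TNFAIP2-labelled libraries, and these did not overlap. This ratio was picked after its values were seen, and its difference was not tested. The same ratio was computed for MIR6723, MIR1282, MIR3661, MIR762 and MIR6126 with the gene opposite each, and there the groups overlapped every time. Only these 2 of the 563 features matched a mitochondrial transcript over more than 70% of their length in the opposite direction, and 0 did in the same direction.

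Features opposite coding exons came next. MIR1282 (ENSG00000221792, chromosome 15, 43793659 to 43793759, minus strand) lies wholly opposite a coding exon of SERF2, which encodes a small protein that promotes amyloid formation. It had 3353, 4785 and 3713 counts in controls and 4168, 4101 and 4612 in TNFAIP2-labelled libraries, and by count control replicate 2 was the highest and control replicate 1 the lowest library. The levels were 1284 ± 233 and 1171 ± 72.2 CPM (SD, n = 3; log2 fold change -0.13, SE 0.19, adjusted p in edgeR = 0.888). The sign turned with scaling by library totals (0.0441), which moved the median of all tested features from 0.02 to 0.18. SERF2 had 173, 178 and 168 counts in controls and 265, 173 and 267 in TNFAIP2-labelled libraries (log2 fold change 0.17, SE 0.24, adjusted p in edgeR = 0.889).

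MIR3661 (ENSG00000266751, chromosome 5, 134225757 to 134225852, plus strand) lies opposite a coding exon of PPP2CA, the catalytic subunit of protein phosphatase 2A, over 93 of its 96 bases. It had 1693, 1824 and 1408 counts in controls and 1434, 1610 and 1601 in TNFAIP2-labelled libraries. Its CPM was 539 ± 108 in controls and 423 ± 47.2 in TNFAIP2-labelled libraries (SD, n = 3), and control replicate 3 lay within the TNFAIP2-labelled range. The log2 fold change was -0.35 (with SE 0.20 and adjusted p in edgeR = 0.830). PPP2CA had 26, 38 and 107 counts in controls and 147, 82 and 73 in TNFAIP2-labelled libraries (log2 fold change 0.61, SE 0.42, adjusted p in edgeR = 0.830).

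MIR762 (ENSG00000211591, chromosome 16, 30893903 to 30893985, plus strand) lies opposite exon sequence of BCL7C, a subunit of SWI/SNF chromatin remodelling complexes. It had 200, 310 and 236 counts in controls and 307, 306 and 399 in TNFAIP2-labelled libraries, and control replicate 2 lay within the other group's range of CPM. Its levels of 80.6 ± 16.8 and 91.9 ± 13.2 CPM (SD, n = 3) gave a log2 fold change of 0.19 (with SE 0.23 and adjusted p in edgeR = 0.872). MIR762 and MIR1279 were the tested miRNA features with a positive value.

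MIR6126 (ENSG00000273776, chromosome 16, 3485381 to 3485469, minus strand) lies opposite a 3' UTR exon of NAA60, an N-terminal acetyltransferase of the Golgi. It had 189, 144 and 99 counts in controls and 98, 102 and 135 in TNFAIP2-labelled libraries. Control replicates 1 and 2 were the highest libraries, and control replicate 3 lay within the other group. The levels were 48.0 ± 19.6 and 30.4 ± 5.19 CPM (SD, n = 3), for a log2 fold change of -0.65 (SE 0.31) with an unadjusted p of 0.0447 and an edgeR adjusted p of 0.830. Without control replicate 3 it was -0.92, past the threshold (adjusted p in edgeR = 0.0254). Without control replicate 1, which had the most counts, it was -0.32 and did not pass. In the fit without control replicate 3, 922 of 12443 features (7.41%) passed, against 0 with all libraries.

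MIR4253 (ENSG00000264014, chromosome 1, 22863159 to 22863226, minus strand) lies with 34 of its 68 bases opposite a coding exon of EPHB2, a receptor tyrosine kinase for ephrins. It had 144, 125 and 91 counts in controls and 82, 133 and 111 in TNFAIP2-labelled libraries, overlapping groups with a log2 fold change of -0.41 (SE 0.31). MIR3918 lies opposite a 3' UTR exon of SYTL3, a Rab27-binding protein of vesicle traffic, and had 84, 84 and 63 counts in controls and 85, 90 and 70 in TNFAIP2-labelled libraries. MIR3195 lies opposite a coding exon of TAF4, a TFIID subunit, and had 41, 14 and 13 counts in controls and 6, 20 and 12 in TNFAIP2-labelled libraries. Its log2 fold change of -1.12 (SE 0.66) was -0.25 without control replicate 1, the library that had 41 counts.

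**Figure D3:**
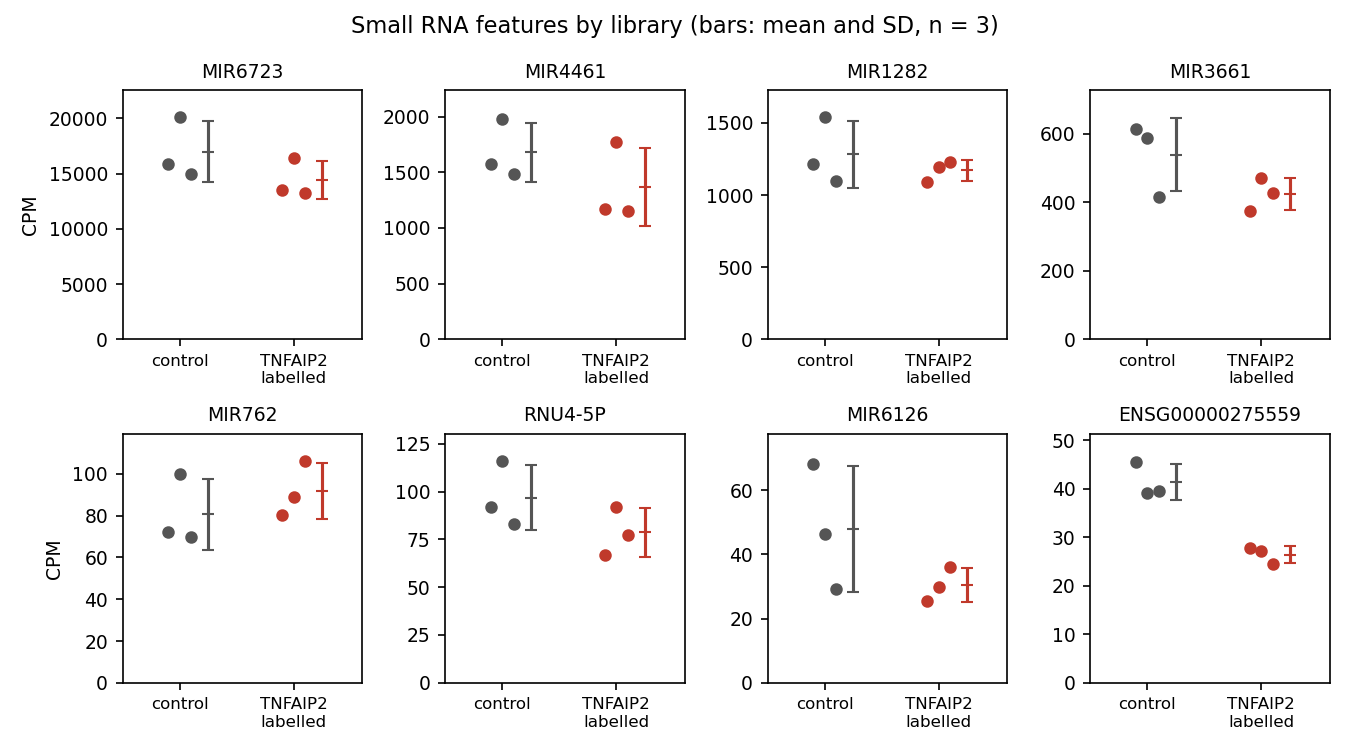
Level of 8 small RNA features in each library (CPM, vertical axis from 0), with controls in grey, TNFAIP2-labelled libraries in red, and bars for the mean and SD of the 3 libraries. The groups overlap in every one of the 8 panels except that of ENSG00000275559, with 41.4 CPM in controls and 26.4 CPM in TNFAIP2-labelled libraries.

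The snRNA with the most counts, RNU4-5P, is a U4 pseudogene (ENSG00000272160, chromosome 10, 109869858 to 109869992, plus strand) on the opposite strand of XPNPEP1, a cytosolic aminopeptidase. Its sequence is shown, with capitals for the 40 bases (109869953 to 109869992, GRCh38) that lie opposite a coding exon, because under 50% of it meets that exon and it is counted above as opposite an intron.
RNU4-5P: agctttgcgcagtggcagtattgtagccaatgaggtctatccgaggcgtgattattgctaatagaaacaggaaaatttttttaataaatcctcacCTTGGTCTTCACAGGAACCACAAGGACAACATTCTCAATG
RNU4-5P had 254, 359 and 281 counts in controls and 255, 315 and 291 in TNFAIP2-labelled libraries, which overlapped at 96.8 ± 17.0 and 78.6 ± 12.6 CPM (SD, n = 3). The log2 fold change was -0.30 (with SE 0.23 and adjusted p in edgeR = 0.831), and that of XPNPEP1 was 0.78 (SE 0.42). All 12 U4 features together held 1872 counts, of which RNU4-5P held 1755.

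Other snRNA features had far fewer counts. RNU6-395P, a U6 pseudogene opposite a 3' UTR exon of POLR2D (an RNA polymerase II subunit), had 52, 45 and 41 counts in controls and 49, 71 and 51 in TNFAIP2-labelled libraries. RNU4-47P, in an intron opposite SEC14L1, had the lowest log2 fold change among the 35 tested small RNA features, -1.21 (SE 0.82), from 13, 8 and 15 counts in controls and 4, 11 and 3 in TNFAIP2-labelled libraries. RNU1-153P had the highest, 0.69 (SE 0.73), from 5, 17 and 4 counts in controls and 22, 10 and 19 in TNFAIP2-labelled libraries. Both had fewer than 100 counts in all, neither passed the threshold, and the groups overlapped in each.

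Conserved pieces of long noncoding RNAs made up much of the misc_RNA counts. The 40 misc_RNA features named for an Rfam family of their own held 2976 counts, 36 of them lay opposite an exon, and 38 were annotated on the plus strand. DLEU2, a long noncoding RNA of chromosome 13 that hosts miR-15a and miR-16-1, lay opposite 6 of them. Those 6 held 1600 counts against 1164 on DLEU2's own row, and per base 12.5 times those of DLEU2. TP53TG1, a p53 target noncoding RNA of chromosome 7, lay opposite 2 features with 826 counts, against 18 on its own row. FTX, a noncoding RNA of the X inactivation centre, lay opposite 5 features with 181 counts and had 3462 on its own row. HOTAIR lay opposite 2 features with 21 counts, against 1, and H19 opposite 2 with 44, against 5. GNAS-AS1 lay opposite 4 features with 185 counts, against 22 on its own row, and those within GNAS are on the strand of GNAS.

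ENSG00000275559 (chromosome 13, 50081843 to 50081978, plus strand) is shown because it alone among the tested small RNA features had groups that did not overlap in CPM. Its whole sequence, reversed and complemented, lies in a DLEU2 transcript.
ENSG00000275559: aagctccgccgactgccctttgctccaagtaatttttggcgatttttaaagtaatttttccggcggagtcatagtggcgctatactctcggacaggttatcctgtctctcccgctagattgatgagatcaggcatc
It had 126, 121 and 134 counts in controls and 106, 93 and 92 in TNFAIP2-labelled libraries, and each control was above each of the others. The levels were 41.4 ± 3.63 and 26.4 ± 1.71 CPM (SD, n = 3), for a log2 fold change of -0.64 (SE 0.27) with an unadjusted p of 0.0281 and an edgeR adjusted p of 0.830. Among all 11851 features tested, 583 (4.92%) were lower and 657 (5.54%) higher without overlap, against 1 and 0 of the 35 small RNA features. DLEU2 on its own row had a log2 fold change of -0.39 (with SE 0.25 and adjusted p in edgeR = 0.830).

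ENSG00000277913 (chromosome 13, 50044649 to 50044768, plus strand), also opposite DLEU2, had 70, 171 and 154 counts in controls and 150, 176 and 103 in TNFAIP2-labelled libraries, overlapping groups with a log2 fold change of -0.10 (SE 0.31). ENSG00000276185, opposite TP53TG1, had 62, 91 and 65 counts in controls and 78, 79 and 99 in TNFAIP2-labelled libraries (log2 fold change -0.02, SE 0.32). ENSG00000273623, next to it opposite the same gene, had 67, 77 and 53 counts in controls and 55, 63 and 37 in TNFAIP2-labelled libraries (log2 fold change -0.60, SE 0.36). With scaling by library totals, ENSG00000277913 and ENSG00000276185 turned positive (0.0549 and 0.156).

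Families present in many genomic copies had few counts each. The 105 Y RNA features held 1023 counts with a highest of 239, on ENSG00000201778, which lies opposite an exon of the cyclin gene CCNL1. It had 37, 43 and 38 counts in controls and 31, 52 and 38 in TNFAIP2-labelled libraries. The 93 U6 features held 935 counts, the 76 7SL features 647 and the 17 7SK features 73, with medians of 3 counts per feature in each of these 3 families. On the opposite strand of a protein-coding row lay 74 of the 105 Y RNA features and 59 of the 93 U6 features.

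snoRNAs were near the detection limit. The 68 snoRNA features had a median of 2.5 counts and 0 entered the test. The highest, ENSG00000200693, had 0, 20 and 3 counts in controls and 2, 13 and 8 in TNFAIP2-labelled libraries, and replicate 2 was the highest of both groups. ENSG00000252774 had 7, 7 and 0 counts in controls and 5, 6 and 17 in TNFAIP2-labelled libraries. ENSG00000206647, within an intron opposite RRM2 (a ribonucleotide reductase subunit), had 8, 8 and 1 and then 9, 2 and 6 counts. C/D snoRNAs numbered 25 with 127 counts, and H/ACA snoRNAs 20 with 94. The single scaRNA feature had 1 count in each of 2 libraries. Differences between groups were not detectable at this depth.

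Host genes with a feature in an intron of the same strand, the usual arrangement for intronic snoRNAs and many miRNAs, mostly had far more counts than the features. Features that also lie opposite an exon or intron of another gene are not in this class, among them MIR4461 (30420 counts, against 53 on PCBD2). The 84 features left had a median of 2 counts and a highest of 45. The 75 protein-coding rows that contain any of them had a median of 410 counts. For 78 of the 84 a row of the same strand was listed, and the totals below are of those. For 33 miRNA features the total was 133 counts, against 81313 on 31 host rows. For 17 snoRNA features it was 63 counts, against 33485 on 15 host rows. MIR25, MIR93 and MIR106B, a well known cluster in an intron of the replication helicase gene MCM7, had 11, 9 and 7 counts, and MCM7 had 3682. Among the 78 features, which leave out MIR4461, 0 miRNA and 0 snoRNA features had more counts than their host. In 1 snRNA feature this was so: RNU6-653P had 27 counts and SESN1 11. Of the 73 hosts in the 76 pairs compared per base below, 5 had under 30 counts. RNU6-418P, in an intron of MFSD4A, was the highest with 6, 3 and 22 counts in controls and 6, 7 and 1 in TNFAIP2-labelled libraries, and control replicate 3 stood above the other 5 libraries.

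Counts per base were then set against the gene, with no minimum of counts. Feature counts were divided by the feature's length, and gene counts by the merged exons of all its transcripts. How far reads that only partly overlap a short feature raise its value per base was not tested. Both limits also apply to the ratios per base given above. Opposite a protein-coding exon, the feature had more counts per base than the gene per exonic base in 34 of 41 pairs, with a median ratio of 21.3, and more whole counts in 15. In an intron of the same strand, where features such as MIR4461 are again not included, the feature was higher per base in 16 of 76 pairs. The median ratio was 0.291, and the feature was higher in whole counts in 1 pair. The table lists features with at least 1 count, so features without one are in neither class. For the 25 features with at least 30 counts opposite a protein-coding exon, a limit on the feature's own counts that favours high ratios, the feature was higher per base in 24 of 25 pairs, with a median ratio of 85.3. The highest ratio was 1470 (MIR1282 over SERF2) and the lowest 0.152 (MIR3934 against UQCC2, an assembly factor of respiratory complex III with 18503 counts of its own). In whole counts the feature was higher in 13 of 25. By part of the gene, 10 of the 43 opposite-exon features met a coding exon (35316 counts), 11 a 3' UTR exon (1939), 6 a 5' UTR exon (165), 13 a noncoding exon within the coding span (727) and 3 both coding and noncoding exon sequence (1884). Of the 60 features with at least 30 counts, 35 had their whole sequence, reversed and complemented, in a GENCODE 29 transcript of another gene, and 1, RN7SL1, had it in the same direction.

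**Figure D4:**
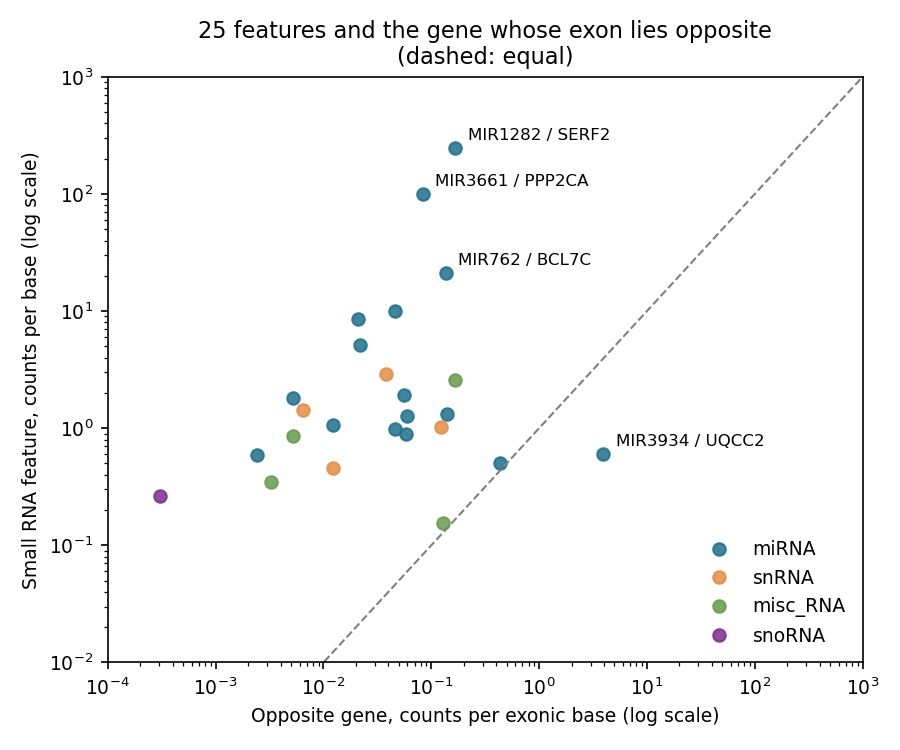
Counts per base of 25 small RNA features with at least 30 counts (vertical log axis) against counts per exonic base of the protein-coding gene whose exon lies opposite (horizontal log axis), summed over 6 libraries and coloured by type, with a dashed line at equality. The features were chosen for their counts, and in 24 of 25 pairs the feature lies above the line, and MIR3934 with UQCC2 lies below it.

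No small RNA feature differed between groups past the threshold. Of the 35 that had enough counts to be tested, 0 passed an adjusted p of 0.05 in edgeR's quasi-likelihood test, where 0% of 11851 features passed and DESeq2 called 3 (0.0253%). Of the 35, 2 had an unadjusted p under 0.05 (MIR6126 and ENSG00000275559, both lower), against 580 of all features (4.89%, with 3.06% lower and 1.83% higher). With no filter on low counts 9 of 563 small RNA features had such a p, beside 4.55% of all features. With at least 10 counts in total 7 of 133 had, beside 5.3% of all features. Without control replicate 3 the number was 10 of 42 tested, beside 23.5% of all features. Log2 fold changes of the 35 ran from -1.21 to 0.69 with a median of -0.26, and 27 were negative and 8 positive. Of all features tested 48.1% were negative, with a median of 0.02. Negative values were found for 14 of 16 miRNA, 9 of 12 misc_RNA and 4 of 7 snRNA features. A total of 673 other noncoding features opposite protein-coding exons had a median of -0.32 with 88.7% negative, and 9057 protein-coding rows had a median of 0.13 with 38% negative. Scaling by library totals moved the small RNA median to -0.13.

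Depth set the precision of these values. The 6 tested features with over 1000 counts had standard errors of at most 0.23 on the log2 scale, and the 14 with fewer than 100 had standard errors from 0.61 to 0.85. Single libraries also moved values that stayed short of the threshold: MIR762 was 0.40 without control replicate 2 and 0.07 without TNFAIP2-labelled replicate 3, RNU4-5P was -0.13 without control replicate 2, and MIR4253 was -0.17 without control replicate 1. In 16 pairs of a feature and the protein-coding gene opposite, both were tested, and the sign of the log2 fold change was opposite in 8. The feature was negative in 12 of these pairs (median -0.25) and the gene in 4 (median 0.12), and both come from the same libraries.

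**Figure D5:**
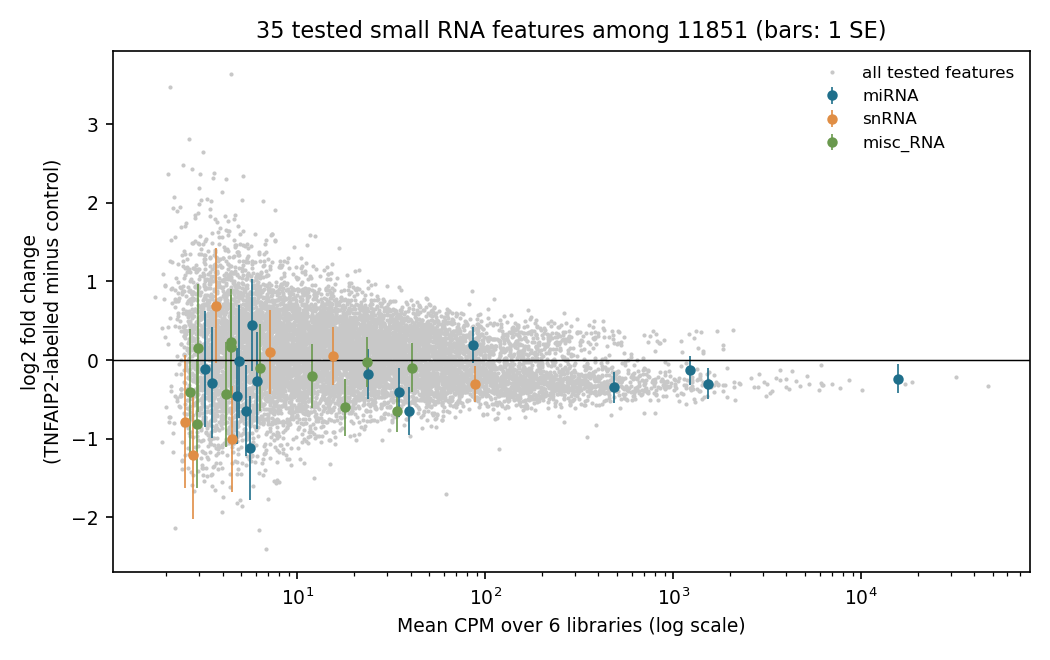
Log2 fold change, TNFAIP2-labelled minus control (vertical axis), against mean CPM over 6 libraries (horizontal log axis) for 35 tested small RNA features, coloured by type with bars of 1 SE, over all 11851 tested features in grey. Of the 35 features, 27 lie below 0, and the bars shorten towards high CPM.

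Genes that make or bind small RNAs were described from 7 lists, in which 0 members passed the threshold in either direction and the lowest edgeR adjusted p was 0.830. Among miRNA processing genes, 13 of 15 were tested, 10 positive and 3 negative, with a median log2 fold change of 0.18 against 0.02 for all features. DDX5, a helicase of the DROSHA complex, had 243, 240 and 472 counts in controls and 586, 314 and 378 in TNFAIP2-labelled libraries (log2 fold change 0.18, SE 0.26). XPO5, which exports miRNA hairpins from the nucleus, had 53, 44 and 105 and then 79, 78 and 55 counts (-0.15, SE 0.36).

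Among 17 proteins of snoRNA particles and their assembly, 15 were tested, 10 positive and 5 negative, with a median of 0.18. FBL, the methyltransferase of C/D snoRNA particles, had 196, 393 and 674 counts in controls and 908, 497 and 875 in TNFAIP2-labelled libraries, at 132 ± 64.1 and 205 ± 52.2 CPM (SD, n = 3; log2 fold change 0.63, SE 0.33). Control replicate 1 was its lowest library, and the groups overlapped. RUVBL1, ZNHIT3 and WRAP53, each with a higher mean CPM than FBL, had negative values. Among 26 snRNA particle and SMN complex genes, 24 were tested, 20 positive and 4 negative, with a median of 0.30. SNRNP70, the U1-specific protein, had 281 ± 29.3 and 292 ± 33.6 CPM (SD, n = 3; 0.05, SE 0.19). SNRPD2, of the Sm ring, had 135 ± 10.5 and 167 ± 24.9 CPM (SD, n = 3; 0.30, SE 0.20).

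For Integrator, the complex that processes snRNA ends, 13 of 14 were tested, 5 positive and 8 negative, with a median of -0.28. INTS11, its endonuclease, had 959, 975 and 810 counts in controls and 814, 837 and 1064 in TNFAIP2-labelled libraries (log2 fold change -0.28, SE 0.20). Proteins of 7SK, RNase P and MRP, the signal recognition particle, Ro and vaults had 21 tested members, 14 positive and 7 negative (median 0.18). SSB, the La protein that binds RNA polymerase III transcripts, had 98.7 ± 33.6 and 92.2 ± 4.70 CPM (SD, n = 3; -0.10, SE 0.25). RNA polymerase III and its factors had 21 tested members, 13 positive and 8 negative (median 0.06). SNAPC3, of the complex that binds snRNA promoters, had 159, 270 and 279 counts in controls and 279, 279 and 235 in TNFAIP2-labelled libraries (log2 fold change -0.07, SE 0.24).

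Noncoding host genes of small RNAs had 30 tested members of 66, 16 positive and 14 negative (median 0.11). MIR497HG had 164 ± 36.8 and 126 ± 21.9 CPM (SD, n = 3), for a log2 fold change of -0.38 (SE 0.22). SNHG14, the host of the SNORD115 and SNORD116 clusters, had 135 ± 29.7 and 117 ± 25.2 CPM (SD, n = 3; -0.20, SE 0.23). MIR762HG, whose row contains MIR762 on the same strand, had 139 ± 40.3 and 112 ± 9.87 CPM (SD, n = 3; -0.31, SE 0.23), against the 0.19 of MIR762.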

How the data were processed

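RNA of 6 CAL27 libraries was sequenced after a stranded mRNA kit, per the labels' protocols. The authors deposited whole-number read counts per gene, not normalized. HISAT2 2.2.0 and HTSeq 0.13.5 are named in the submitters' processing notes, as are Trim Galore 0.6.4 and the builds hg38 and GRCh38. Which annotation release, strand setting and rule for reads with several matches were used is not given in the sources at hand.

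Members were the rows of the 5 types. Exon positions came from GENCODE 29, and an exon position needed 50% of the feature. Tests used edgeR 4.0.16 in R 4.3.3 (filterByExpr, TMM, robust quasi-likelihood), on all rows with Benjamini-Hochberg adjustment over 11851 features, TNFAIP2-labelled minus control. Standard errors were derived from the F statistic. On simulated data with 183 of 11677 features changed 4-fold, 73.2% of those were called, with 7 false calls. The changed features were drawn from all tested ones, and libraries were made to differ by totals only. The share called is therefore not that for the small RNA features.

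Named features were, by type, up to 8 with the highest mean CPM among those with at least 30 counts, and up to 10 more with the lowest p. For each list up to 4 members with the highest mean CPM could be named. Values of some genes that these rules take are not reported here. The members of pairs and of long noncoding RNAs, MIR25, MIR93, MIR106B and MIR3934 were chosen after their values were seen. Members and lists were chosen with earlier results of these data known. Alternatives covered scaling, filters, DESeq2 1.42.0, limma-voom 3.58.1, each library left out in turn and a replicate block. Mature miRNA sequences are RefSeq's (GRCh38.p14), and the sequences of RNU4-5P and ENSG00000275559 are GENCODE 29 transcripts.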

Additional observations from a re-analysis of the deposited data

How the results depend on the processing

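The small RNA median log2 fold change kept its sign in every alternative fit run, and ran from -0.38 to -0.13 with a library left out. Of 33 named tested features, 5 changed sign with scaling by library totals: MIR1282 (0.0441), ENSG00000277913 (0.0549), MIR3918 (0.000155), ENSG00000276185 (0.156) and ENSG00000275625 (0.0542). With a library left out, 23 of 198 values changed sign, in 11 features. Their ranges were -0.24 to 0.0481 for MIR1282, -0.36 to 0.17 for ENSG00000277913, -0.16 to 0.19 for ENSG00000276185, -0.16 to 0.23 for RNU6-395P, -0.20 to 0.38 for RNU2-27P, -0.42 to 0.21 for ENSG00000275625, -1.20 to 0.13 for MIR4271, -0.23 to 0.78 for ENSG00000199546, -0.16 to 0.82 for ENSG00000207383, -0.62 to 0.15 for MIR3190 and -0.23 to 1.45 for ENSG00000276859. Over all features, 3 passed an adjusted p of 0.05 with DESeq2, 1 with limma-voom, 3 with no filter on low counts and 1 with at least 10 counts in total, against 0 in the edgeR fit. With a library left out the count ran from 0 to 922, and the 922 were without control replicate 3. In those fits 0 to 2 small RNA features passed, and the 2, without control replicate 3, were MIR6126 and RN7SL1. Small RNA features with an unadjusted p under 0.05 numbered 0 of 35 with library totals and 1 with limma-voom, against 2. There were 9 of 563 with no filter, 7 of 133 with at least 10 counts and 1 of 18 with a mean of at least 20 counts. With a library left out there were 0 to 10, and the 10 were of 42 tested without control replicate 3. Among all features 4.55% with no filter, 5.3% with at least 10 counts and 23.5% without control replicate 3 had such a p. The cause was not tested. Replicate numbers are shared by the groups, but the labels do not say that they mark a shared culture, so they were not taken as pairs. Same-numbered libraries correlated at -0.252, 0.153 and -0.0472 in their deviations from the group mean, and other combinations from -0.289 to 0.347. With 3 libraries per group, these values cannot show that pairing is absent. With the replicate block 1 small RNA feature had an unadjusted p under 0.05 and 0 features passed after adjustment. The share of small RNA counts opposite protein-coding exons was 10.2%, and 10.6% when 1 base of overlap sufficed. Depth limits the rest: 363 features had 5 counts or fewer.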

Other observations

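RN7SL1 (ENSG00000276168, chromosome 14, 49586580 to 49586878, plus strand), a gene of the 7SL RNA, was picked after its values were seen. Controls 1 to 3 held 0, 0 and 4 of its counts and TNFAIP2-labelled libraries 1 to 3 held 7, 13 and 16, and each of the latter was above every control. RN7SL1 had too few counts for the main test, where 5.54% of features were higher without overlap of the groups in CPM. With a filter of at least 10 counts in total it was tested, with an edgeR unadjusted p of 0.0205 and an adjusted p of 0.876. Under that filter 5.3% of all features had an edgeR unadjusted p under 0.05. Without control replicate 3 the controls hold 0 counts, and in that fit, where 7.41% of all features passed, its adjusted p in edgeR was 0.0341. 7SL has near-identical copies, so the copy that gave the reads is uncertain.

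MIR205, a miRNA gene known for its activity in squamous epithelium, had 0, 1 and 7 counts in controls and 10, 1 and 10 in TNFAIP2-labelled libraries. Its groups overlapped, and it was likewise picked after its values were seen.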
